A study of Mus musculus with 6 samples.

Results

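The transcription factor p53 (gene symbol Trp53) and 9 of its target genes (Cdkn1a, Bax, Mdm2, Ccng1, Trp53inp1, Bbc3, Pmaip1, Gadd45a and Sesn1) were read on 6 expression arrays of mouse heart muscle cells. The 10 genes were taken by symbol from the array's own gene names, and 13 probes carried these names. After names were updated to RefSeq symbols where possible, the array held 35440 different names. All arrays came from adult mice 6 weeks after transverse aortic constriction (TAC), a narrowing of the aorta that loads the left ventricle with pressure. The wild-type group (3 arrays) was from littermates of the H19 KO group (3 arrays), in which the imprinted long non-coding RNA gene H19 had been knocked out. Which part of H19 was deleted is not stated in these sources. RNA was total RNA of the cardiomyocyte fraction obtained by retrograde perfusion, and hearts without TAC were not analysed here. The labels do not say that each array is 1 mouse, so the spread behind each p-value may be partly technical.

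p53 is held at a low level in unstressed cells because Mdm2, a ubiquitin ligase that p53 itself switches on, marks it for degradation. DNA damage and other stresses stabilise the protein, which then binds response elements near its target genes. The targets stop the cell cycle (Cdkn1a, Gadd45a), open the mitochondrial path to cell death (Bax, Bbc3, Pmaip1), protect against oxidants (Sesn1, Trp53inp1) or feed back on p53 (Mdm2, Ccng1). Because p53 is controlled mainly as a protein, the level of its mRNA is not a reading of its activity. p53 has been studied in the pressure-loaded mouse heart as a factor in the change from hypertrophy to failure.

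Cdkn1a has more than 1 transcription start, and its tested probes had mean genotype differences of opposite sign, though none passed the significance threshold. Both starts are therefore shown. The RefSeq table of promoters (assembly GRCm38.p6) held 8 of the 10 genes, with 12 starts. It held no entry for Trp53inp1 and Pmaip1. The bases before each Cdkn1a start on the plus strand of chromosome 17 are printed 5′ to 3′, at chr17:29090729-29090978 for the upstream start and chr17:29093519-29093768 for the downstream start, 2790 bases further on. Capitals mark the stretch that best matches the p53 consensus site.
Upstream start: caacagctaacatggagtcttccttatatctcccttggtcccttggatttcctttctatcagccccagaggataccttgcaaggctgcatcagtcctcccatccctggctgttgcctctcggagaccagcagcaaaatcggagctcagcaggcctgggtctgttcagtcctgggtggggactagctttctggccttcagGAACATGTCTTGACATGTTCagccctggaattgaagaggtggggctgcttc
Downstream start: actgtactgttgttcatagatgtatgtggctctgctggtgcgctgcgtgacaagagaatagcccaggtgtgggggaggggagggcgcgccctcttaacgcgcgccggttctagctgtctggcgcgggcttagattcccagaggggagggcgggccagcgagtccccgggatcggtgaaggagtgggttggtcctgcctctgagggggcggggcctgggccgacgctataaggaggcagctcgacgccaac
The capitals span 20 bases, from 51 to 32 bases before the upstream start, and match the p53 consensus at 19 of 20 positions. The same 19 or more positions were matched in 0.0883% of 32851 promoter windows of 300 bases (250 before the start and 50 after it). The spaced core CATGNNNNNNCATG, which reads the same on both strands, was taken from the capitals, so its presence in this window was fixed beforehand. It occurs in 0.712% of all windows, this one included. The window of the downstream start matched the consensus at no more than 15 positions, a score that 76.6% of windows reached. The capitals begin 2841 bases before the downstream start, outside the window searched for it. Among the other genes of the set, Ccng1 also had a window with 19 of 20 matches (chromosome 11), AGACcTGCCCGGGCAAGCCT, in which the lower-case letter marks the position off the consensus. The best windows of Bax, Bbc3, Gadd45a, Sesn1 and Trp53 matched at 17 positions, as 6.29% of windows did, and that of Mdm2 at 15. These matches describe letters in the windows searched and no binding was measured.

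The 3 Cdkn1a probes are 60 bases long, and the first 30 bases of each are given to show which RNA they read.
Shared 3′ probe (NM_007669, mm9 chr17:29237377-29237436): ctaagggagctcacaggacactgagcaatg
Variant 2 probe (NM_001111099, mm9 chr17:29227986-29228045): aatggagacagagaccccagataattaagg
U09507 probe (mm9 chr17:29235299-29235358): tggggtagtttccatagtgacccgggtcct
The variant 2 probe and the 3′ probe together span 9451 bases of the genome. From the downstream start to the end of the gene RefSeq gives 6954 bases, and from the upstream start 9744 bases. The variant 2 probe, which begins at base 55 of its transcript, therefore lies before the downstream start and reads RNA begun at the upstream start. The 3′ probe begins at base 1619 of NM_007669, near the end of the gene.

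Signals are given as log2 values relative to the 75th percentile of the array, so 0 is the brightness below which 75% of the array's probes lie, and values of different probes are not comparable as amounts of RNA. A probe was tested where it was well above background on at least 3 of 6 arrays. Across 21888 genes tested with limma at a Benjamini-Hochberg adjusted p under 0.05, 8 genes were called (0.0365%), 2 higher and 6 lower in H19 KO. Scaling to the array median instead shifted the median difference of all genes from -0.05 to 0.37 and called 119 genes, 102 higher and 17 lower. H19 itself was well above background on 3 wild-type arrays and on 0 H19 KO arrays, at least 32.4-fold higher in wild type (limma adjusted p = 0.00185). All 10 cardiomyocyte markers were tested, with a median difference of -0.03 and 0 called. Contractile genes such as Myh6 and Tnnt2 were bright on every array (Myh6 from 8.30 to 8.71). For these 2 of the 10 all H19 KO arrays lay below all wild-type arrays, as for 8.37% of all genes. Their log2 differences, H19 KO minus wild type, were -0.21 for Myh6 and -0.20 for Tnnt2. The percentage of spots well above background ranged from 48.8% to 58.6%.

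Of the 10 genes, 9 were tested and 0 were called, against 0.0365% of all genes (0.00914% higher and 0.0274% lower). Of their 13 probes 11 were tested, with 0 called against 0.0467% of all probes, and 1 had an unadjusted p under 0.05 against 8.25%. One, Bax, had an unadjusted p under 0.05, which 7.92% of all genes had (1.06% higher and 6.86% lower in H19 KO). In H19 KO, 6 of the 9 were higher, as were 39.9% of all genes, and 3 lower, with a median difference of 0.07 against -0.05 for all genes. The tested probes were also split by mean level into 4 groups of equal size. The probes of 5 of the 9 genes fell in the second brightest group and of 3 in the brightest. There 48.6% and 45.9% of probes were lower, with median differences of 0.0052 and 0.0090, against 84.1% lower in the dimmest group. With median scaling all 9 were higher. Relative to the median of all genes, the median of the 9 was 0.12 higher. Median scaling moves every gene by the same amount, so this value is the same under it by construction. All H19 KO arrays lay above all wild-type arrays for 2 of the 9, Bax and Cdkn1a, an arrangement found in 2.1% of all genes. None of the 9 had all H19 KO arrays below, which 8.37% of all genes had, and 7 overlapped. The differences of 6 genes were within 0.25 on the log2 scale, as were those of 66.1% of all genes. The lowest adjusted p among the 9 was 0.614.

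**Figure D1:**
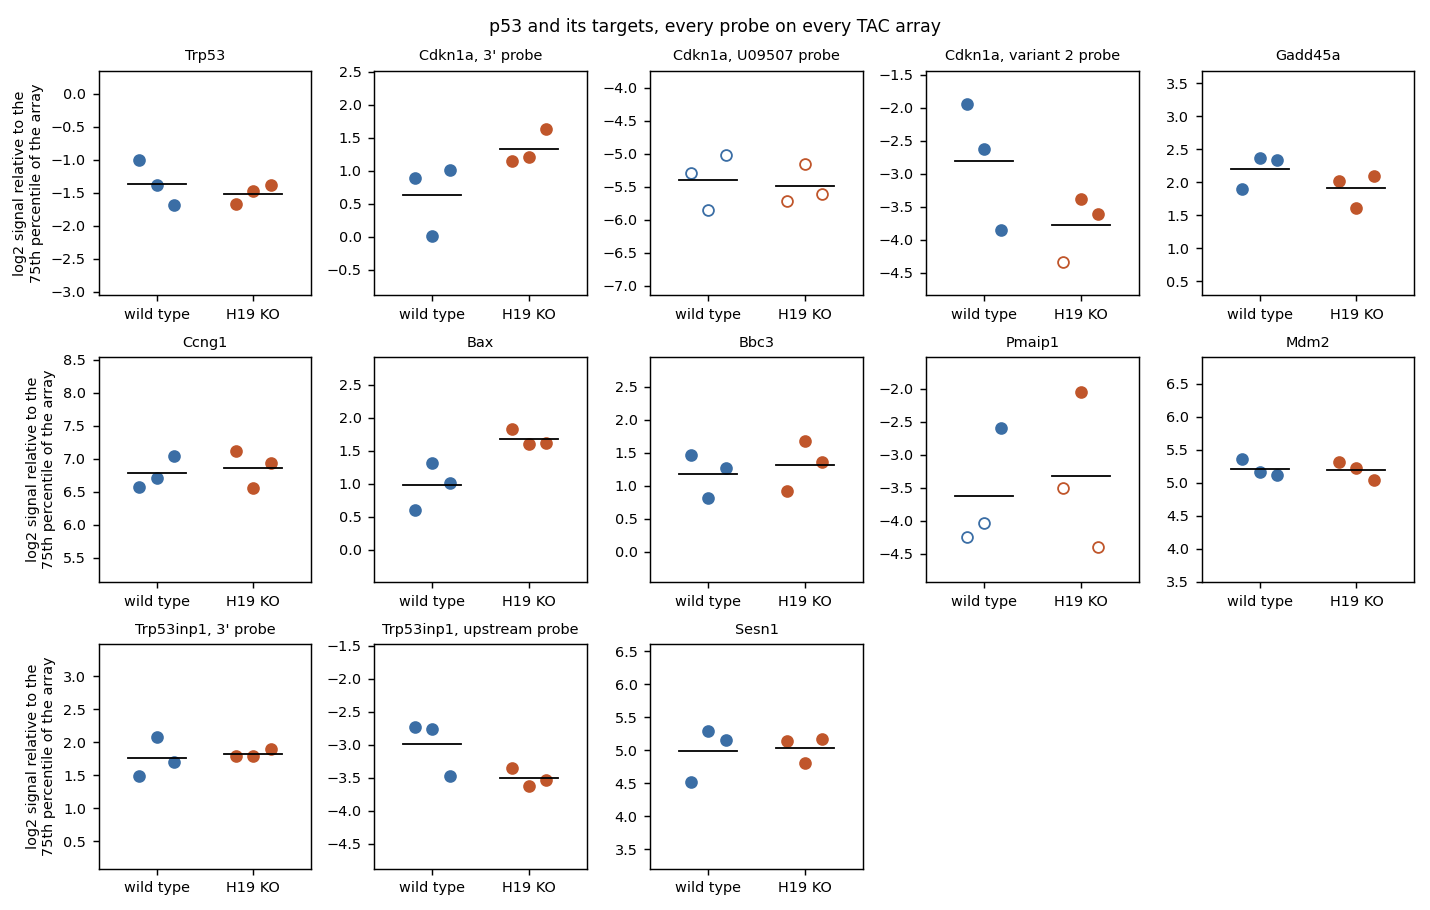
Log2 signal (0 is the 75th percentile of the array's probes) for each of the 13 probes on the 3 wild-type (blue) and 3 H19 KO (orange) arrays, with group means as lines. Every panel spans the same number of log2 units, and open points were not well above background. Bax and the 3′ probe of Cdkn1a show no overlap between the genotypes, and the other probes overlap.

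Trp53 (probe at mm9 chr11:69404204-69404263) was well above background on all 6 arrays, with log2 signals of -1.01, -1.39 and -1.69 in wild type and -1.68, -1.48 and -1.39 in H19 KO. The first wild-type array was the brightest and the rest overlapped. The log2 difference, H19 KO minus wild type, was -0.15 (SE 0.21, n = 3 per genotype, 95% confidence interval -0.65 to 0.34, limma adjusted p = 0.9996), and it was 0.27 with median scaling. The wild-type arrays spread more (SD 0.34) than the H19 KO arrays (SD 0.15). The mRNA of p53 was therefore not shown to differ, and the interval leaves room for a fall of up to 0.65 or a rise of up to 0.34.

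Cdkn1a encodes p21, an inhibitor of cyclin-dependent kinases. Its 3′ probe, averaged from 10 spots per array, read 0.89, 0.01 and 1.01 in wild type and 1.15, 1.21 and 1.63 in H19 KO. The lowest H19 KO array stood just above the highest wild-type array, and the second wild-type array was far below the other two. The log2 difference was 0.69 (SE 0.30, 95% confidence interval -0.0060 to 1.40), a ratio of 1.62, with an unadjusted p of 0.0515 and a limma adjusted p of 0.629. With median scaling it was 1.12. Without the second wild-type array it was 0.38. On the slide that held 1 array of each genotype it was 0.26, and on the slide with 2 of each it was 0.91.

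The probe for variant 2 went the other way. It read -1.94, -2.62 and -3.86 in wild type and -4.34, -3.39 and -3.61 in H19 KO, and it was well above background on 3 wild-type and 2 H19 KO arrays. The first and second wild-type arrays were the brightest and the third lay among the H19 KO arrays. The log2 difference was -0.97 (SE 0.49, 95% confidence interval -2.14 to 0.19, limma adjusted p = 0.639 over 29990 probes). This includes the H19 KO signal of -4.34, which was not well above background, so the size is not exact. With quantile normalization the difference was -0.64 and with median scaling -0.55. The U09507 probe was well above background on 0 arrays and gives no level.

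The 3′ signal minus the variant 2 signal within an array was 2.82, 2.63 and 4.87 in wild type and 5.49, 4.60 and 5.24 in H19 KO. The value of 5.49 rests on a variant 2 signal of -4.34 that was not well above background, where the lowest signal well above background was -3.63, so it is no exact value. With it included, the mean of these differences was larger by 1.67 in H19 KO. An exact two-sided permutation test over arrays gave p = 0.2, and 0.1 is the smallest p that 3 against 3 arrays allow. The third wild-type array lay inside the H19 KO range. These differences were looked at after the values of both probes had been seen. Dim probes were in general lower in H19 KO: when the tested probes were split by mean level into 4 groups of equal size, 84.1% of the dimmest 7498, which hold the variant 2 probe, were lower, with a median difference of -0.46. In the group that holds the 3′ probe 48.6% were lower and the median difference was 0.0052. The part of this shift in the opposite signs of the Cdkn1a probes was not tested.

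**Figure D2:**
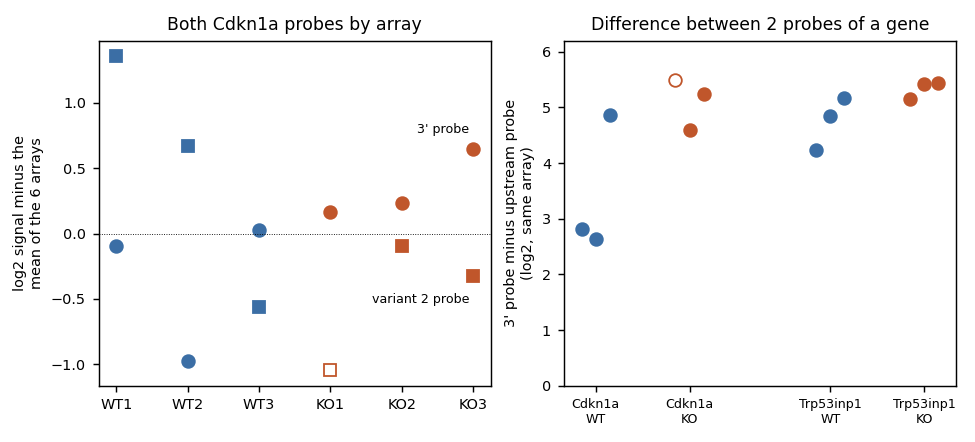
Left, log2 signal minus the mean of the 6 arrays for the 3′ probe (circles) and the variant 2 probe (squares) of Cdkn1a on each wild-type (WT, blue) and H19 KO (KO, orange) array, with an open square where the probe was not well above background. Right, the within-array log2 difference between the 3′ probe and the upstream probe of Cdkn1a and Trp53inp1, with an open circle where the upstream probe was not well above background. For Cdkn1a 2 wild-type arrays lie at 2.82 and 2.63, and the third, at 4.87, lies among the H19 KO arrays.

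Gadd45a, a growth arrest gene that also acts in DNA repair (mm9 chr6:66985376-66985435), read 1.89, 2.37 and 2.34 in wild type and 2.02, 1.62 and 2.10 in H19 KO. Of the wild-type arrays the first lay within the H19 KO range and the others above it. Its log2 difference was -0.29 (SE 0.21, 95% confidence interval -0.78 to 0.20, limma adjusted p = 0.817), and 0.13 with median scaling. Among relatives of the set, Gadd45b moved the other way, from 0.79, 1.42 and 1.67 to 2.63, 1.98 and 2.30. Its log2 difference was 1.01 (SE 0.28, limma adjusted p = 0.614), with all H19 KO arrays above all wild-type arrays. Of the 10 relatives tested, 6 were higher, 4 lower and 0 called, with a median of 0.04. The difference between Gadd45a and Gadd45b was not tested.

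Bax, the pore-forming member of the Bcl-2 family that permeabilises the outer mitochondrial membrane (mm9 chr7:52717122-52717181), read 0.60, 1.31 and 1.01 in wild type and 1.83, 1.61 and 1.62 in H19 KO. Every H19 KO array was above every wild-type array, and the H19 KO arrays lay closer together (SD 0.12) than the wild-type arrays (SD 0.36). The log2 difference was 0.71 (SE 0.21, 95% confidence interval 0.21 to 1.21), a ratio of 1.63, with an unadjusted p of 0.0121 and a limma adjusted p of 0.614. By unadjusted p it ranked 391 of 21888 genes. The separation of the arrays held under quantile normalization (0.69), normexp background correction (0.65), the authors' deposited values (0.69) and median scaling (1.13). Within slides the difference was 1.22 on the slide with 1 array per genotype and 0.45 on the slide with 2.

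Bbc3 encodes PUMA, which frees Bax from its inhibitors. Its probe (mm9 chr7:16903403-16903462) read 1.47, 0.81 and 1.27 in wild type and 0.92, 1.67 and 1.36 in H19 KO. The ranges overlapped almost fully and the log2 difference was 0.13 (SE 0.26, 95% confidence interval -0.48 to 0.74, limma adjusted p = 0.9996). It was -0.55 on the first slide and 0.47 on the second. Pmaip1 encodes NOXA, another BH3-only protein. Its probe was well above background on 1 wild-type array, at -2.59, and 1 H19 KO array, at -2.05, so it was not tested and no fold is given.

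Mdm2 and Ccng1, which feed back on p53, showed small differences. Mdm2 (mm9 chr10:117126010-117126069) read 5.36, 5.16 and 5.12 in wild type and 5.31, 5.22 and 5.04 in H19 KO, with a log2 difference of -0.02 (SE 0.15, 95% confidence interval -0.39 to 0.35, limma adjusted p = 0.9996). The arrays of both genotypes interleaved. Under median scaling its difference was 0.40, close to the 0.37 of all genes. Ccng1 encodes cyclin G1, which directs a phosphatase to Mdm2 (mm9 chr11:40562427-40562486), and read 6.57, 6.71 and 7.04 in wild type and 7.11, 6.56 and 6.93 in H19 KO. Its log2 difference was 0.09 (SE 0.21, 95% confidence interval -0.41 to 0.58).

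Trp53inp1, a nuclear stress protein, has a 3′ probe (mm9 chr4:11101174-11101233) that begins at base 5041 of NM_021897 and an upstream probe that begins at base 659 of the same transcript. The 3′ probe read 1.49, 2.08 and 1.71 in wild type and 1.79, 1.80 and 1.90 in H19 KO, a log2 difference of 0.07 (SE 0.19, 95% confidence interval -0.37 to 0.51). The H19 KO arrays fell inside the wild-type range. The upstream probe read -2.74, -2.76 and -3.47 in wild type and -3.36, -3.62 and -3.54 in H19 KO. On 2 of 3 H19 KO arrays it lay below every wild-type array, with a log2 difference of -0.51 (SE 0.23, 95% confidence interval -1.06 to 0.03, limma adjusted p = 0.613 over probes), and of -0.11 with quantile normalization. It too is among the dimmest 7498 probes. The within-array difference of the 2 probes was larger by 0.59 in H19 KO (exact two-sided permutation test over arrays, p = 0.2; the smallest p that 3 against 3 arrays allow is 0.1), a comparison added after both probes had been seen.

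Sesn1 encodes a sestrin, which restrains the growth kinase complex mTORC1 and limits oxidants. Its probe (mm9 chr10:41628012-41628071) read 4.51, 5.29 and 5.15 in wild type and 5.14, 4.80 and 5.16 in H19 KO. The first wild-type array was the lowest and the others overlapped. The log2 difference was 0.05 (SE 0.24, 95% confidence interval -0.52 to 0.62), being 0.63 on the first slide and -0.24 on the second. Ccng1 was alike in this, at 0.54 and -0.14. With 1 array of each genotype on the first slide, its values have no error of their own.

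**Figure D3:**
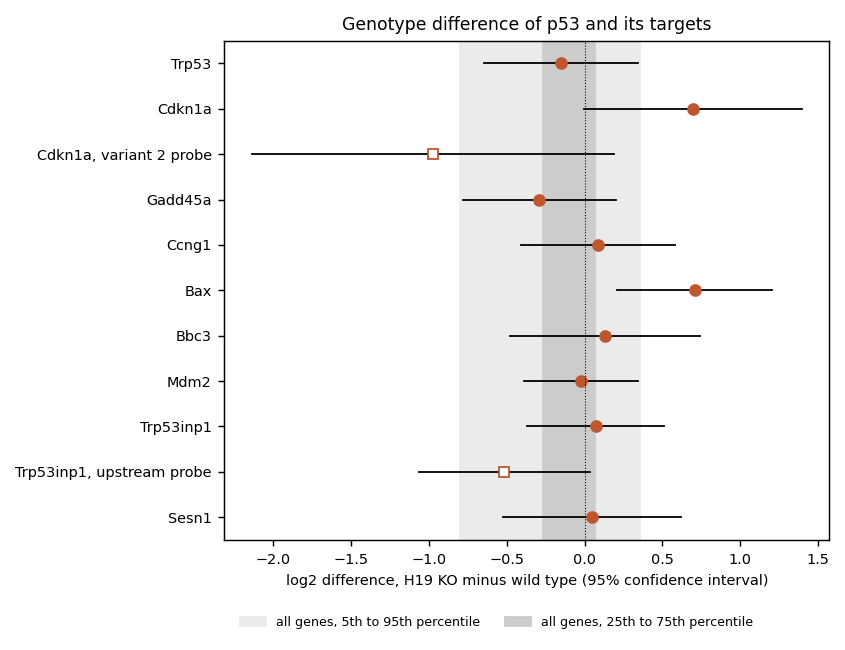
Log2 difference, H19 KO minus wild type, with its 95% confidence interval for the 9 tested genes (filled circles) and for the upstream probes of Cdkn1a and Trp53inp1 (open squares), over bands that hold 25 to 75 and 5 to 95 percent of all 21888 genes. Among the genes, only the interval of Bax lies wholly on one side of 0, and that of Cdkn1a reaches just below it.

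The wider p53 pathway was read from a list of 70 further genes, of which 65 were tested. In H19 KO 40 were higher, as were 39.9% of all genes, and 25 lower, with 0 called against 0.0365% of all genes, and the median difference was 0.03 against -0.05. The values of all genes include the dim probes, which were in general lower, and were not matched to this list by level. With median scaling 62 of the 65 were higher. At an unadjusted p under 0.05, 1 gene of the 65 was higher and 2 were lower, against 1.06% and 6.86% of all genes. Among regulators of p53, 12 of 19 were higher and 7 lower, with differences between -0.73 and 0.25. The lowest was Cdkn2a, whose products include the Mdm2 inhibitor ARF, at -0.73 (SE 0.34, limma adjusted p = 0.640). It was a dim probe, well above background on 5 arrays. The next by p were Trp53bp1, a DNA damage mediator, at 0.25, Sirt1, a deacetylase of p53, at 0.23, and Mdm4, an inhibitor related to Mdm2, at -0.24.

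The cell cycle targets spread most, from -0.72 to 0.94 over 8 tested genes, 5 of them higher. The low end was Sfn, well above background on only 3 of 6 arrays. Plk3, a stress-responsive polo-like kinase, read -0.02, -0.15 and 0.68 in wild type and 0.70, 1.54 and 1.08 in H19 KO. Its log2 difference was 0.94 (SE 0.30, limma adjusted p = 0.614), with the lowest H19 KO array barely above the highest wild-type array. Psrc1, a microtubule regulator, read -2.61, -2.67 and -3.02 in wild type and -3.48, -3.46 and -3.49 in H19 KO. Its log2 difference was -0.71 (SE 0.16, limma adjusted p = 0.614), and Ckap2, another microtubule protein, was at -0.40 (SE 0.17, limma adjusted p = 0.626). Both were among the dimmest 7498 probes, Psrc1 being well above background on 5 arrays and Ckap2 on 4. Btg2, an antiproliferative gene that is also in the immediate early list, was at 0.58 (SE 0.33).

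Of 13 cell death targets, 10 were higher, with a median of 0.04 and a range from -0.41 (Pidd1) to 0.40 (the death receptor Tnfrsf10b). Pidd1 was well above background on 5 arrays. Of 7 DNA repair targets, 6 were lower, with a median of -0.14 and Ercc5, an excision endonuclease, at -0.21. With quantile normalization 4 of these 7 were lower and with median scaling 0. The 14 metabolic targets stayed between -0.12 and 0.20, 9 of them higher. Of 4 secreted targets, 3 were higher. The stress cytokine Gdf15 read 0.17, 1.04 and 2.56 in wild type and 2.57, 2.54 and 1.88 in H19 KO. The third wild-type array matched the H19 KO arrays, and the log2 difference was 1.07 (SE 0.57, limma adjusted p = 0.681). The growth factor carrier Igfbp3 was at 0.61 (SE 0.28).

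**Figure D4:**
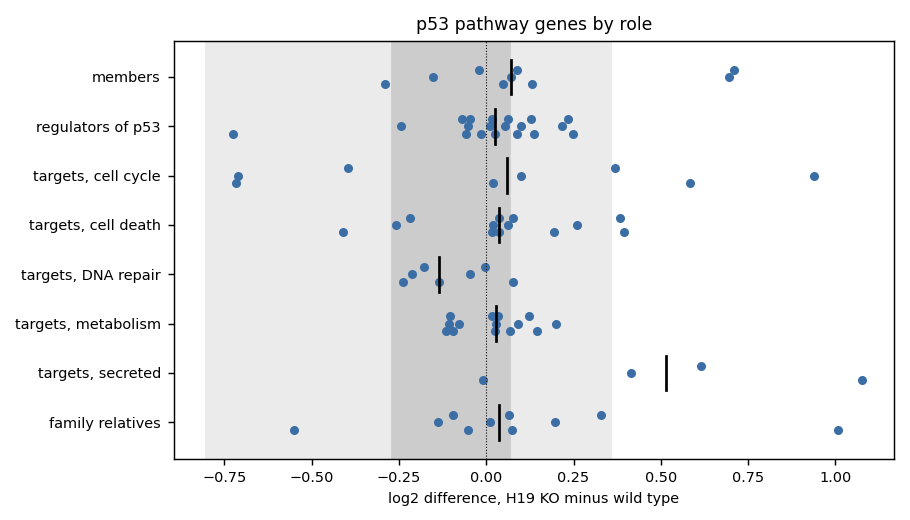
Log2 difference, H19 KO minus wild type, of each tested gene by its role in the p53 pathway, with the list's median as a bar, over bands holding 25 to 75 and 5 to 95 percent of all genes. The secreted targets have the highest median, 0.51 over 4 genes, and the repair targets the lowest, -0.14 over 7.

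Stress genes were counted beside Bax and Cdkn1a. All 20 tested immediate early genes, which cells switch on within minutes of a stimulus, were higher in H19 KO (39.9% of all genes were), with a median of 0.61, and 0 were called against 0.0365% of all genes. Of the 20, 8 had all H19 KO arrays above all wild-type arrays, against 2.1% of all genes. Both shares of all genes include the dim probes, which were in general lower, and were not matched to this list by level. With normexp background correction 19 of the 20 were higher. With median scaling 3 were called, where 119 of all 21888 genes were called, 102 of them higher. By array, the median of their centred values was -0.61, -0.56 and 0.14 in wild type and 0.40, 0.38 and 0.20 in H19 KO. The zinc finger factors Klf4 (0.80, SE 0.16) and Egr2 (2.17, SE 0.53) and the AP-1 subunit Fosb (1.13, SE 0.30) had the smallest p of the list, each with a limma adjusted p of 0.614. Of 10 genes of the ATF4 stress response, 8 were higher with a median of 0.15, led by Ddit3 (0.60), Ppp1r15a (0.59) and Atf5 (0.39). All 7 heat shock genes were higher, with a median of 0.13, 0 called (1 with median scaling) and Hspa1a, an inducible chaperone, at 1.62 (SE 0.37), Hsp90aa1 at 0.33 and Dnajb1 at 0.46. The part of these lists in the values of Bax and Cdkn1a was not tested.

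Markers of other heart cells differed between arrays as well. The 10 fibroblast markers were all higher in H19 KO, with a median of 0.61, 0 called (1 with median scaling), and summed levels (linear, relative to the array's 75th percentile) of 211 to 405 in wild type and 316 to 630 in H19 KO, where the second array was the highest. Dcn was at 0.65, Dpt at 0.95 and Mmp2 at 1.22. The 10 macrophage markers were all lower, with a median of -0.43 and summed levels of 56.7 to 78.5 in wild type and 36.3 to 77.2 in H19 KO, but with median scaling 5 were lower. Lyz2 was at -0.58, Ctss at -0.76 and Adgre1 at -0.66. The 9 endothelial and 6 smooth muscle and pericyte markers had medians of 0.06 and 0.08. Of 8 lymphocyte, 5 mesothelial and 8 proliferation markers, 4, 4 and 6 were tested, with medians of 0.41, 0.31 and -0.11 and 0 called (1 lymphocyte marker with median scaling). Median scaling called 119 of all 21888 genes, 102 of them higher. Fewer cells of a type and less RNA per cell cannot be told apart in these bulk samples, and the part of other cells in the p53 target values was not tested.

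**Figure D5:**
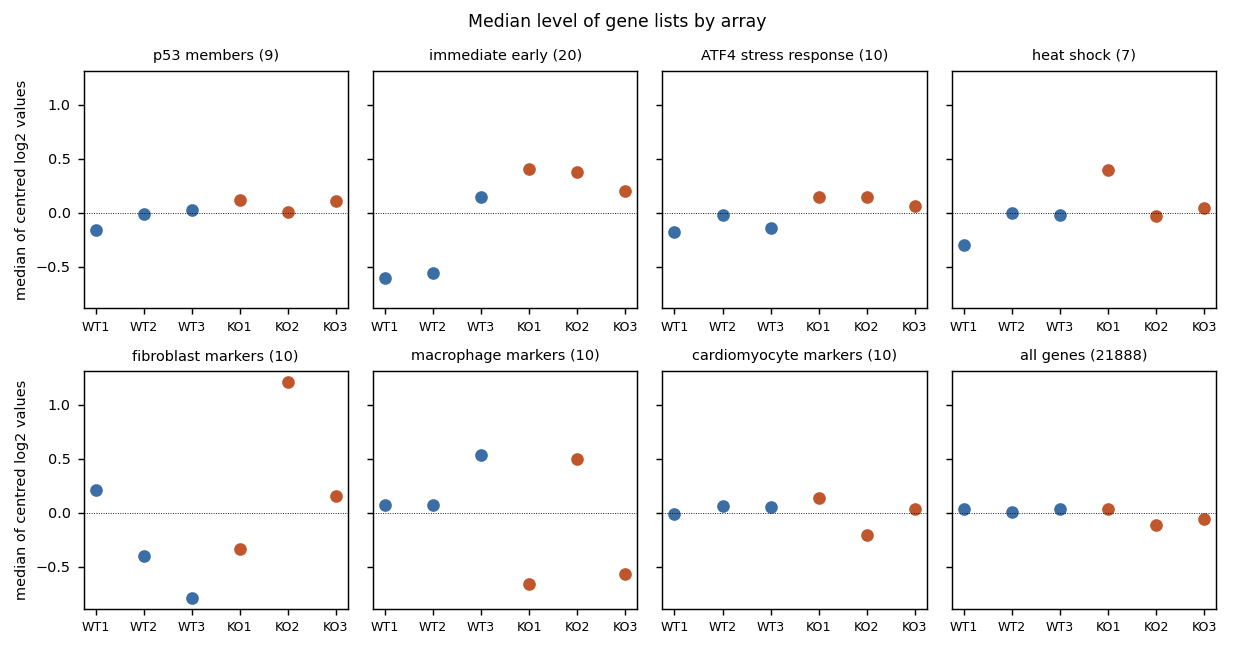
Median over genes of log2 values centred on each gene's mean over the 6 arrays, for the tested genes of the p53 set and of stress and cell type lists on each wild-type (WT, blue) and H19 KO (KO, orange) array, with the number of genes in brackets. The immediate early list runs from -0.61 on a wild-type array to 0.40 on an H19 KO array, while the p53 set stays between -0.16 and 0.11.

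The array patterns nearest to 3 genes of the set were found by Euclidean distance of centred log2 values over the 6 arrays, among 14118 tested genes with established symbols. For Trp53 the nearest were Cdiptos (distance 0.083), Tbx3 (0.154) and Pias3 (0.161). For Bax they were Ap2b1 (0.113), Nr1d1 (0.160) and Atrnl1 (0.182). Their log2 differences of 0.66, 0.68 and 0.69 lie near the 0.71 of Bax by the way they were chosen. For Cdkn1a the nearest lay farther off, with Acsl3 at 0.399, Trpm3 at 0.478 and Tex14 at 0.517. Distances were not scaled to each gene's spread over the arrays, so those of different genes are not directly comparable. No other gene of the p53 set was among these. With only 3 taken for each gene out of 14118, that absence says nothing about shared patterns.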

How the data were processed

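Cardiomyocyte RNA of 3 wild-type and 3 H19 KO samples after TAC was hybridised to 1-colour arrays, per the labels' protocols. Per the file headers, Agilent Feature Extraction 10.7.3.1 gave each spot a background-subtracted intensity and flags, with probe coordinates in mm9. The authors' deposited value table holds intensity values with the same column median (69.7) on all 6 arrays and ranks equal to the scanner's. For the main results, log2 was taken of the scanner's background-subtracted intensity and not of that table. Outlier spots and 3671 control spots were dropped, the spots of each probe averaged, and each array's 75th percentile was subtracted. The 29990 probes that 3 or more of the 6 arrays measured well above background were kept, and a gene was its probe with the highest mean (21888 genes). Genotypes were compared with limma 3.58.1 in R 4.3.3 (lmFit, eBayes), Benjamini-Hochberg over all genes or probes; every adjusted p of a gene comes from this fit unless another setting is named with it. The fit was tested on simulated data. The number of arrays limits the precision. Promoters came from RefSeq, assembly GRCm38.p6.

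The genes of the set and all lists were chosen with earlier results of these data known. Named genes were all 10 of the set with every probe, H19, up to 4 genes per p53 list and 3 per marker list by smallest p, and the 3 nearest patterns of Trp53, Cdkn1a and Bax. Alternatives were quantile normalization, median scaling, normexp with offset 50, the authors' values, other filters, averaged probes of a gene, blocks of replicate or slide, a trended robust prior, and leaving out each array. The main fit did not pair the arrays by replicate number. The value of 1 gene that this rule names is not reported here.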

Additional observations from a re-analysis of the deposited data

How the results depend on the processing

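The number of genes called was 8; it was 3 with quantile normalization, 3 with the authors' deposited values, 119 with median scaling, 1 without a filter on dim probes (35427 genes), 1 with slide as a block, and 1 to 4 when an array was left out. None of the 9 tested genes of the p53 set was called under any of these settings or the others run. Their median difference of 0.07 became 0.49 with median scaling, -0.021 with the mean of a gene's probes, 0.26 within slide 1 and -0.0099 within slide 2, and that of the pathway list (0.03) became 0.45 with median scaling, which moved the median of all genes to 0.37. Signs reversed with median scaling for Gadd45a (0.13), Mdm2 (0.40) and Trp53 (0.27), with normexp background correction for Mdm2 (0.016), and with the mean of a gene's probes for Cdkn1a (-0.14) and Trp53inp1 (-0.22), where the other probes enter. Leaving out single arrays gave ranges that cross 0 for Bbc3 (-0.053 to 0.33), Ccng1 (-0.034 to 0.24), Mdm2 (-0.083 to 0.056), Sesn1 (-0.19 to 0.20), Trp53 (-0.32 to 0.026) and Trp53inp1 (-0.062 to 0.23). They did not for Bax (0.52 to 0.88), Cdkn1a (0.38 to 0.88) and Gadd45a (-0.44 to -0.14). The causes were not tested beyond what each setting changes.

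Same-numbered arrays of the genotypes had correlations of -0.22, -0.05 and 0.04 in their deviations from the group means. Differently numbered arrays had correlations from -0.27 to 0.33. With 3 arrays per genotype these values cannot show whether the replicate numbers pair the arrays. With the replicate number as a block 1 gene was called, and the differences of Bax (0.71) and Cdkn1a (0.69) each had an adjusted p of 0.479. Signal near background limits Pmaip1, 2 of the 3 Cdkn1a probes and the upstream Trp53inp1 probe.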
